A study of Homo sapiens with 8 samples.

Results

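The epidermal growth factor (EGF) ligands and their ERBB receptors were followed by the mRNA of 10 genes: the receptors EGFR, ERBB2 and ERBB3, and the ligands EREG, AREG, HBEGF, TGFA, BTC, EPGN and NRG1. They were named by gene symbol, and each of the 10 matched 1 of the 58688 genes counted. All 8 samples were LM2 cells, a lung-metastatic derivative of the human triple negative breast cancer line MDA-MB-231, grown in serum-containing medium. In the first experiment, 2 samples received DMSO, the solvent control, and 2 received Ponatinib, an inhibitor of ABL and other tyrosine kinases, at 1 µmol/L for 6 h. In the second, puromycin-selected populations made with lentiviral short hairpin RNA (shRNA) carried a scrambled sequence, an shRNA against ABL1, an shRNA against ABL2, or shRNAs against both, with 1 sample each. RNA was sequenced and counted per gene, with 7568934 to 13010896 counts on genes per sample.

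The ERBB receptors are tyrosine kinases that pair up when a ligand binds. EREG, AREG, HBEGF, TGFA, BTC and EPGN are made as membrane-anchored precursors, are cut loose by ADAM proteases and bind EGFR, while NRG1 binds ERBB3 and ERBB4, and ERBB2 has no ligand of its own but serves as the favoured partner of the others. In epithelial cancers the activated receptors signal through RAS, RAF and ERK and through PI3-kinase, and several of the ligand genes are themselves known targets of ERK signalling. EREG is also part of a known lung metastasis gene signature of breast cancer.

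The labelled line was checked against marker genes. All 7 markers of mesenchymal breast cancer cells (VIM, CD44, AXL, SPARC, CAV1, MSN and ZEB1) were detected in every sample, at a summed level of 4274 to 6837 CPM, the count of a gene set against the TMM-adjusted total of its library. The 7 luminal markers summed to 15.5 to 22.1 CPM, and PGR, the progesterone receptor gene, was at 0 counts in all 8 samples. It was the only one of them at 0 throughout. GATA3 (74 to 99 counts) and EPCAM (61 to 125 counts) were detected in every sample and made up most of the luminal sum. ESR1 and FOXA1 each had 3 to 11 counts per sample.

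In the genome (build GRCh38), 4 of the 7 ligand genes lie together on chromosome 4, where EPGN, EREG, AREG and BTC span 486.1 kb (chr4:74308470-74794523). EPGN, EREG and AREG are on the forward strand and BTC is on the reverse strand. HBEGF is at chr5:140332843-140346603 and TGFA at chr2:70447284-70554193, both on the reverse strand. Of the receptors, EGFR is at chr7:55019017-55211628, ERBB2 at chr17:39687914-39730426 and ERBB3 at chr12:56076799-56103505, all on the forward strand. EGFR, ERBB2 and ERBB3 share exon bases with other counted genes, and the strand setting of the counting is not given in the sources used here, while none of the 7 ligand genes does.

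The 250 bases before the RefSeq start site (GRCh38.p14) are shown for 3 ligands: EREG and AREG, neighbours whose levels fell with Ponatinib and were higher with ABL1 shRNA, and HBEGF, which had the largest change of the 10 genes. Capitals mark matches, on either strand, to any of 5 motifs: AP-1 (TGANTCA), CRE (TGACGTCA), ETS (CCGGAAGT), EGR (GCGTGGGCG) and the TATA box (TATAAA). These motifs do not share a match in the windows shown.
EREG, chr4:74364895-74365144, forward strand: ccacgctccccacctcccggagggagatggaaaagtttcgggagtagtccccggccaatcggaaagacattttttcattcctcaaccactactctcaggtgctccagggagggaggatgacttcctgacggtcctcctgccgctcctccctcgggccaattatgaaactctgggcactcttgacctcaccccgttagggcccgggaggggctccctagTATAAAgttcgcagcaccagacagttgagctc
AREG, chr4:74444886-74445135, forward strand: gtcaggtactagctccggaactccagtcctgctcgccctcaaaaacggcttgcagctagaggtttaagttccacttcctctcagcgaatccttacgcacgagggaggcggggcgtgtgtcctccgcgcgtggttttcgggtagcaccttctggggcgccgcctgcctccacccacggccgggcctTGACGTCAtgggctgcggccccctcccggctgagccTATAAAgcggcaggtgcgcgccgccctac
HBEGF, chr5:140346604-140346853, reverse strand: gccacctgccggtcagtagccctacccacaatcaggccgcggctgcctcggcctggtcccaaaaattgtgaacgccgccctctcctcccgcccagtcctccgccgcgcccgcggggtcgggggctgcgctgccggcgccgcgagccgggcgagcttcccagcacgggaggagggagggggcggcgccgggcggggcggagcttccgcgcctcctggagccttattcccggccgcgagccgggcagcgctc
The TATA letters began 32 bases before the start of EREG and 29 bases before that of AREG, and 10.7% of 35116 RefSeq promoter windows of this length hold them. AREG also had the CRE letters, the palindrome recognised by CREB and ATF factors, 65 bases before its start, and 1.65% of windows hold those. No letters of the 5 motifs were found in the HBEGF window, and the shares of all windows with AP-1, ETS and EGR letters were 6.57%, 3.42% and 0.720%. Among member windows not shown, an EGFR window held AP-1 and TATA letters, and the ERBB2 window held AP-1 and ETS letters. Both overlap an exon. The EPGN window held TATA letters, and the windows of TGFA and BTC and another EGFR window held none. A match of letters is a description of the sequence and not a measured site.

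At baseline, EGFR and its ligands HBEGF and EREG were the most abundant of the 10 mRNAs per length. In RPKM, that is CPM per kilobase of exon, HBEGF was at 36.8 and 35.8 in the 2 DMSO samples and EGFR at 34.6 and 33.6. EREG followed with 21.0 and 21.4 RPKM. TGFA (10.0 and 10.9 RPKM) and AREG (7.98 and 10.1 RPKM) overlapped and could not be ordered. ERBB2 came next with 5.21 and 5.58 RPKM, and NRG1 had 1.79 and 1.80 RPKM. The lowest were BTC (0.367 and 0.458 RPKM), ERBB3 (0.333 and 0.329 RPKM) and EPGN, which had 2 counts in each DMSO sample and 1 to 4 counts in every other sample. Apart from TGFA and AREG, neighbours in this order did not overlap between the 2 samples. The place of HBEGF above EGFR rested on the length used: over the longest transcript instead of the union of all exons, the mean was 46.0 RPKM for HBEGF and 54.9 RPKM for EGFR. The order of BTC and ERBB3 turned in the same way, with means over the longest transcript of 0.413 RPKM for BTC and 0.618 RPKM for ERBB3. By that length ERBB2, at a mean of 11.3 RPKM, also came close to AREG, at 12.04 RPKM. HBEGF lay above 91.6% and EGFR above 90.9% of 17504 genes in RPKM, while BTC lay above 11.1% and ERBB3 above 9.18%. Of the 5 genes of the family outside the list, the ligand genes EGF and NRG2 were at 0.794 ± 0.041 and 0.287 ± 0.0017 RPKM (SD, n = 2), ERBB4 and NRG4 had 0 to 4 counts in each sample, and NRG3 was at 0 counts in all 8 samples.

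To ask how the kinase inhibitor moved the family within 6 h, Ponatinib was compared with DMSO. The mRNA of 5 of the 6 tested ligands and of EGFR fell, with HBEGF down 6.21-fold, and ERBB3, ERBB2 and the low-level ligand BTC rose. In counts, 6 of the 9 members that could be tested were lower and 3 were higher at an adjusted p under 0.05 (edgeR quasi-likelihood test, Benjamini-Hochberg adjustment over 16031 genes), and EPGN was too low to test. The members' median log2 fold change was -0.68, against -0.0047 over all genes tested. Of all genes tested, 15.7% were lower and 15.0% were higher by the same rule. The DMSO and Ponatinib values of all 9 members did not overlap, 6 being lower and 3 higher, where 32.8% of genes were lower and 32.1% higher without overlap. By the study's own rule for changed genes, a fold over 2 with an unadjusted P under 0.05, HBEGF and TGFA were lower and ERBB3 was higher, where 2.29% of genes were lower and 3.19% higher, 5.48% in all. Nothing in the labels says whether the repeats are separate cultures, so p-values measure only the spread between these samples, which may be technical. In RNA from a whole culture, fewer cells with the transcript and less transcript per cell cannot be told apart.

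**Figure D1:**
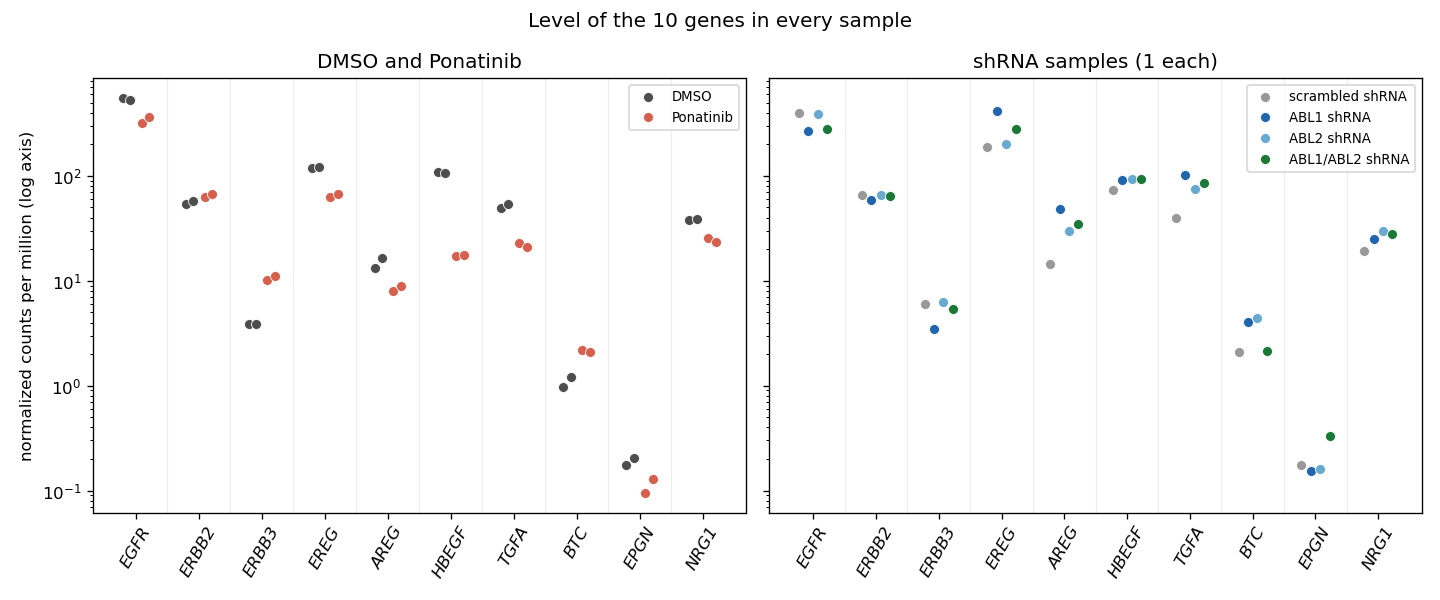
Level of each of the 10 genes in every sample, as TMM-normalised CPM on a log axis, with DMSO and Ponatinib samples in one panel and shRNA samples in the other; each point is 1 sample. HBEGF drops from 107 to 110 CPM with DMSO to 17.4 to 17.6 CPM with Ponatinib, and AREG is at 14.6 CPM with scrambled shRNA and at 30.2 to 48.6 CPM with the 3 knockdowns.

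Among the receptors, EGFR, which binds most of these ligands, was at 552 and 535 normalised CPM with DMSO and at 318 and 361 CPM with Ponatinib. It fell 1.60-fold (log2 fold change -0.68, SE 0.067, edgeR adjusted p = 2.03e-06). ERBB3, a receptor with an impaired kinase that signals mainly through its partners, rose from 3.89 and 3.85 CPM to 10.2 and 11.1 CPM, or 2.72-fold (log2 fold change 1.45, SE 0.19, edgeR adjusted p = 3.15e-05). The ERBB3 values came from 38 to 107 counts per sample, and even in the Ponatinib samples ERBB3 stayed at 0.869 and 0.945 RPKM. ERBB2 was at 53.7 and 57.6 CPM with DMSO and at 63.2 and 67.03 CPM with Ponatinib. The difference was 1.17-fold (log2 fold change 0.22, SE 0.077, edgeR adjusted p = 0.0381). It was not called without DMSO replicate 1 (adjusted p = 0.356), without DMSO replicate 2 (adjusted p = 0.104) or without Ponatinib replicate 2 (adjusted p = 0.0757).

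HBEGF, a heparin-binding ligand of EGFR and ERBB4, was at 110 and 107 CPM with DMSO and at 17.4 and 17.6 CPM with Ponatinib. The Ponatinib samples thus held 16.1% of the DMSO level (log2 fold change -2.64, SE 0.084, edgeR adjusted p = 1.39e-11). TGFA, another EGFR ligand, fell from 49.4 and 53.8 CPM to 22.9 and 21.0 CPM, a log2 fold change of -1.22 (SE 0.096, edgeR adjusted p = 2.08e-07). EREG, a ligand of EGFR and ERBB4, fell from 120 and 122 CPM to 63.4 and 67.3 CPM, a log2 fold change of -0.89 (SE 0.068, edgeR adjusted p = 1.56e-07).

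AREG, an EGFR ligand with a known role in mammary duct growth, was at 13.1 and 16.6 CPM with DMSO and at 7.99 and 8.85 CPM with Ponatinib. It fell by 0.82 on the log2 scale (SE 0.16, edgeR adjusted p = 0.00144), the 2 DMSO samples being the more widely spread. NRG1, the ligand of ERBB3 and ERBB4, fell from 38.2 and 38.5 CPM to 25.6 and 23.4 CPM (log2 fold change -0.64, SE 0.096, edgeR adjusted p = 0.000132). So the transcript of the ERBB3 ligand was lower and that of ERBB3 itself higher in the same samples. BTC, a ligand of EGFR and ERBB4, had 11 and 12 counts with DMSO and 23 and 16 counts with Ponatinib. Its log2 fold change of 0.97 (SE 0.35) passed the threshold narrowly (edgeR adjusted p = 0.0475), and the call was lost without any 1 of the 4 samples (adjusted p from 0.0895 to 0.297). EGF, outside the list, had 66 and 62 counts with DMSO and 101 and 74 counts with Ponatinib, and rose by 0.67 on the log2 scale (SE 0.17, edgeR adjusted p = 0.00807). NRG2 was at 1.33 and 1.32 CPM with DMSO and at 1.71 and 1.69 CPM with Ponatinib, and was not called (edgeR adjusted p = 0.488).

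**Figure D2:**
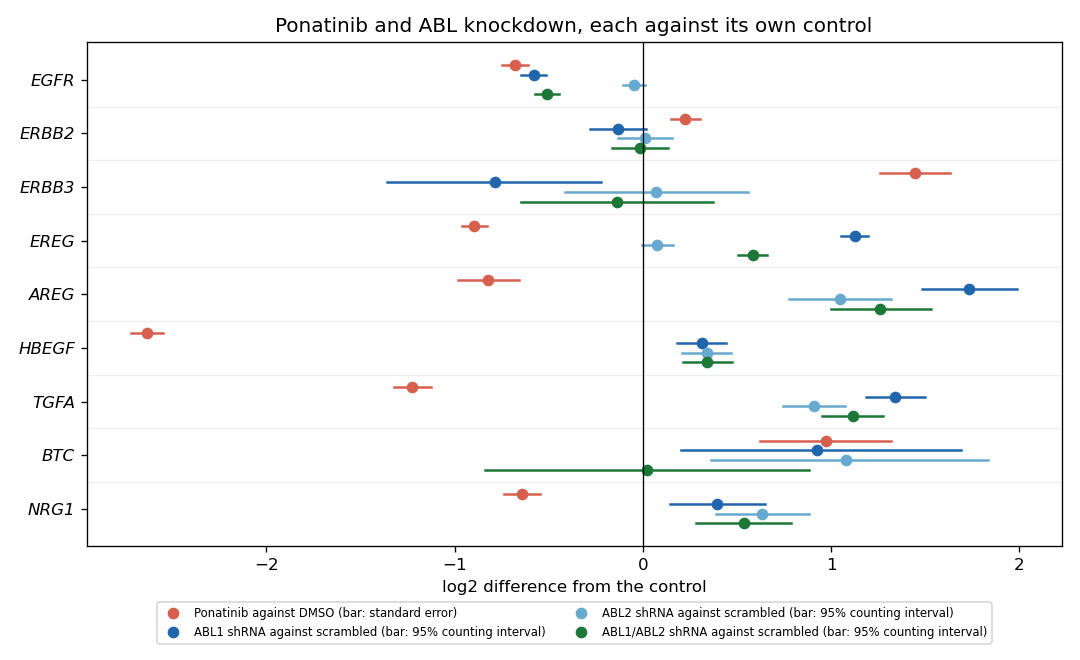
Log2 difference from the control for the 9 genes with enough counts, in the 4 comparisons; bars show the standard error of the edgeR fit for Ponatinib and the 95% exact counting interval for the knockdowns, which have 1 sample each and no test. HBEGF is at -2.64 with Ponatinib and between 0.31 and 0.34 in the knockdowns, and AREG is at -0.82 with Ponatinib and between 1.05 and 1.73 in the knockdowns.

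Because several ligands share EGFR, the make-up of the ligand transcripts was also described, as the summed RPKM of EREG, AREG, HBEGF, TGFA, BTC, EPGN and EGF. The sum was 77.1 and 79.6 RPKM in the DMSO samples and 28.6 and 29.4 RPKM in the Ponatinib samples. HBEGF made up 47.8% and 45.0% of it with DMSO and 20.4% and 19.99% with Ponatinib. EREG went the other way, from 27.3% and 26.9% to 38.9% and 40.1%, although its own level was lower. AREG had 10.3% and 12.7% with DMSO and 17.0% and 18.3% with Ponatinib. With Ponatinib, EREG thus took the place of HBEGF as the leading ligand transcript per length. BTC and EGF together stayed below the share of TGFA in every sample.

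**Figure D3:**
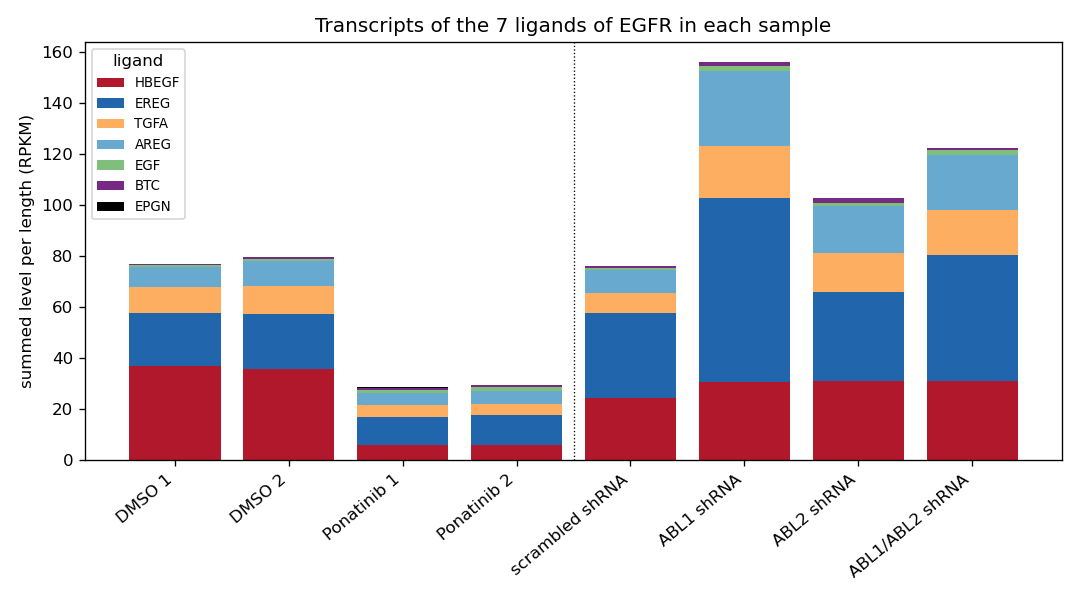
Summed RPKM of the 7 ligands that bind EGFR in each of the 8 samples, with each bar divided by ligand, and the axis starting at 0. The bars stand at 77.1 and 79.6 RPKM with DMSO, at 28.6 and 29.4 RPKM with Ponatinib, at 76.3 RPKM with scrambled shRNA and at 103 to 156 RPKM with the knockdowns.

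Genes around the ligands and receptors were read in 3 lists, beside a share of 30.7% of all genes tested that were called in either direction. Of 13 genes for the release of ligands, 12 were tested, of which 2 were higher, 5 were lower and 5 were not called, with a median log2 fold change of -0.11. The largest falls were in ADAM19, a metalloprotease, from 48.2 and 48.0 CPM to 21.3 and 19.4 CPM (log2 fold change -1.23, edgeR adjusted p = 1.71e-07), and in RHBDF2 (iRhom2), which carries ADAM17 to the cell surface, from 20.5 and 19.6 CPM to 9.98 and 8.33 CPM (log2 fold change -1.12, edgeR adjusted p = 2.33e-05). ADAM12, another metalloprotease, fell from 3.54 and 4.66 CPM to 2.19 and 1.95 CPM (edgeR adjusted p = 0.0162). ADAM17, the main sheddase of HBEGF, AREG, EREG and TGFA, rose from 34.1 and 32.0 CPM to 49.2 and 51.8 CPM (log2 fold change 0.61, edgeR adjusted p = 8.10e-05). So ADAM17 and RHBDF2 were called in opposite directions. Of the same list, RHBDF1 (log2 fold change -0.47, edgeR adjusted p = 0.00405) and FRMD8 (log2 fold change -0.42, edgeR adjusted p = 0.00745) were called lower too, by less than 1.5-fold.

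Of 24 genes for adaptors and effectors recruited by the receptors, 22 were tested, with 5 higher, 3 lower and 14 not called, and a median log2 fold change of 0.10. EPS8, an EGFR substrate that acts on actin, rose by 0.74 on the log2 scale (edgeR adjusted p = 7.43e-07). SOS2, an exchange factor for RAS, rose by 0.70 (edgeR adjusted p = 1.36e-06), GRB10, an adaptor, by 0.65 (edgeR adjusted p = 2.34e-06) and PIK3R3, a regulatory subunit of PI3-kinase, by 0.71 (edgeR adjusted p = 0.000724). The adaptor SHC3 fell by 0.89 (edgeR adjusted p = 0.00165).

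Of 21 genes that restrain or degrade the receptors, 20 were tested, with 5 higher, 5 lower and 10 not called, and a median log2 fold change of 0.036. CBLB, a ubiquitin ligase for active receptors, rose from 12.3 and 12.2 CPM to 24.8 and 26.4 CPM (log2 fold change 1.06, edgeR adjusted p = 8.39e-06). RNF41 (Nrdp1), a ubiquitin ligase known for directing ERBB3 to degradation, rose from 46.6 and 43.0 CPM to 76.3 and 76.5 CPM (log2 fold change 0.77, edgeR adjusted p = 2.18e-06), in the samples where the ERBB3 transcript was higher too. UBASH3B (Sts-1), which opposes CBL and slows the loss of EGFR, fell from 163 and 161 CPM to 74.9 and 82.4 CPM (log2 fold change -1.04, edgeR adjusted p = 2.75e-08).

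**Figure D4:**
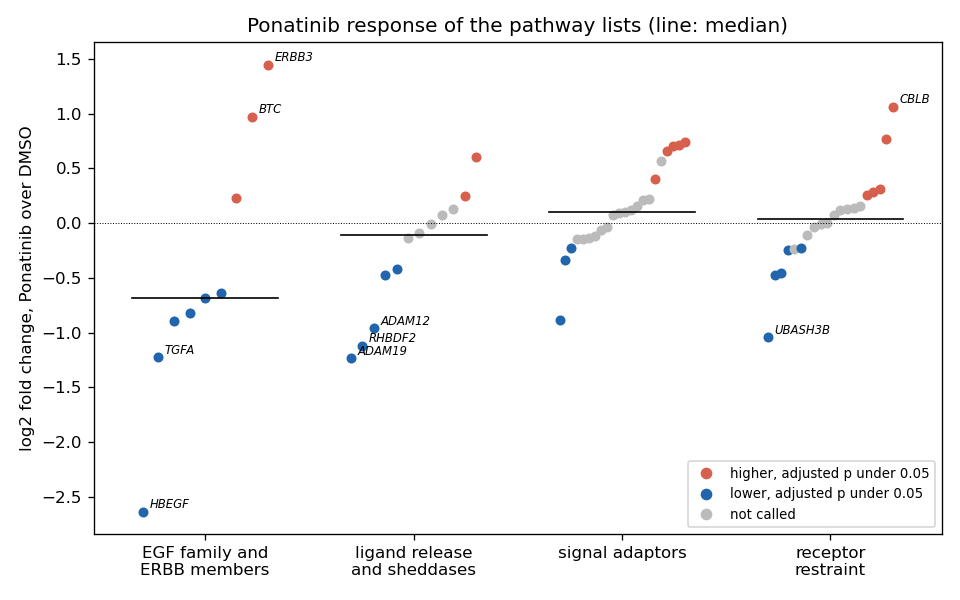
Log2 fold change of Ponatinib against DMSO for every tested gene of the members and the 3 pathway lists, coloured by call; horizontal lines are the list medians, and the genes furthest from 0 are labelled. The members reach from -2.64 to 1.45, and the pathway lists from -1.23 to 1.06.

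To ask how the family stood where ABL1 or ABL2 mRNA was reduced, each knockdown was set beside the scrambled shRNA sample. The level of most ligands was higher in the knockdowns than in the scrambled sample, AREG by 2.06 to 3.32-fold in all 3, while EGFR was lower with ABL1 shRNA and with both shRNAs. There is 1 sample per group, so these differences have no replicate check and no test, and the 3 knockdowns share 1 control. Intervals are 95% exact (Clopper-Pearson) intervals of the ratio and cover counting error only. The shRNA targets were read first. ABL1 was at 0.384 of the scrambled level with ABL1 shRNA and at 0.576 with both, and ABL2 was at 0.396 with ABL2 shRNA and at 0.625 with both. The sample with both shRNAs thus kept more of each target than the matching single knockdown. The scrambled sample stood apart from the other 3 shRNA samples by more than 2-fold at 2.66% of 16329 genes, against 1.11% for ABL1 shRNA, 1.46% for ABL2 shRNA and 0.625% for both. A property of the 1 scrambled culture and a change shared by the knockdowns cannot be told apart. With 1 shRNA sequence per target, loss of the target and other effects of that shRNA cannot be told apart either.

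Members over 2-fold above the scrambled level were EREG, AREG and TGFA in the ABL1 knockdown, AREG and BTC in the ABL2 knockdown, and AREG and TGFA in the double knockdown. This was 3, 2 and 2 of 9 members, beside 4.87%, 4.65% and 4.47% of all genes with at least 10 counts in one of the samples compared. No member was over 2-fold lower, where 4.02%, 3.06% and 3.27% of genes were. Above the scrambled level by any amount were 6, 8 and 6 of the 9 members, where 50.7%, 49.5% and 50% of genes were. In all 3 knockdowns, 6 of 9 members were above it, as were 28.9% of 15311 genes.

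AREG was at 14.6 CPM in the scrambled sample, 48.6 CPM with ABL1 shRNA, 30.2 CPM with ABL2 shRNA and 35.0 CPM with both. The ratios were 3.32 (2.80 to 3.97), 2.06 (1.72 to 2.49) and 2.40 (2.00 to 2.88). It was the one member over 2-fold higher in all 3 knockdowns, as were 1.10% of 15311 genes, while 1.08% were over 2-fold lower in all 3 and no member was. The scrambled AREG value lay between the 2 DMSO values of the other experiment, which was normalised separately. That was not so for the other members compared. Above both DMSO values were EREG (189 against 120 and 122 CPM), ERBB2, ERBB3 and BTC. Below both were EGFR (402 against 552 and 535 CPM) and HBEGF (73.4 against 110 and 107 CPM). TGFA (39.9 against 49.4 and 53.8 CPM) and NRG1 (19.1 against 38.2 and 38.5 CPM) were below both too.

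TGFA was at 39.9 CPM in the scrambled sample, 101 CPM with ABL1 shRNA, 74.7 CPM with ABL2 shRNA and 86.3 CPM with both. Its ratios were 2.53 (2.27 to 2.83), 1.87 (1.67 to 2.10) and 2.16 (1.94 to 2.42), so that TGFA and AREG had the same order of samples. EREG was at 189 CPM in the scrambled sample, 412 CPM with ABL1 shRNA, 199 CPM with ABL2 shRNA and 283 CPM with both. The EREG ratio was 2.18 (2.07 to 2.29) with ABL1 shRNA and 1.498 (1.42 to 1.58) with both, and its interval with ABL2 shRNA took in 1 (1.06, 0.996 to 1.12). EREG was thus near the scrambled level in the knockdown without the ABL1 shRNA.

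HBEGF, the member furthest below its control with Ponatinib, was at 73.4 CPM in the scrambled sample and at 91.2, 92.8 and 93.0 CPM with ABL1, ABL2 and both shRNAs. Its ratios of 1.24 (1.14 to 1.36), 1.26 (1.16 to 1.38) and 1.27 (1.16 to 1.39) lay close together. NRG1 was at 19.1 CPM in the scrambled sample and at 25.1, 29.6 and 27.7 CPM in the same order, with ratios of 1.31 (1.10 to 1.57), 1.55 (1.31 to 1.84) and 1.45 (1.22 to 1.73). BTC had 24 counts in the scrambled sample and 52, 56 and 26 counts in the knockdowns, and its ratios were 1.90 (1.15 to 3.22), 2.11 (1.29 to 3.56) and 1.01 (0.559 to 1.84). EPGN, at 2 to 4 counts, allowed no comparison at this depth.

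EGFR was at 402 CPM in the scrambled sample, 269 CPM with ABL1 shRNA, 389 CPM with ABL2 shRNA and 282 CPM with both. The ratios were 0.669 (0.640 to 0.699), 0.967 (0.929 to 1.01) and 0.703 (0.672 to 0.735), so EGFR was low in both samples that carried the ABL1 shRNA. ERBB3 was at 5.98 CPM in the scrambled sample and at 3.47, 6.29 and 5.43 CPM in the knockdowns. Its ratio was 0.581 (0.389 to 0.859) with ABL1 shRNA, and the intervals with ABL2 shRNA and with both took in 1. ERBB2 was at 65.2 CPM in the scrambled sample and at 59.5, 65.7 and 64.6 CPM in the knockdowns, and all 3 intervals took in 1 (0.824 to 1.01, 0.912 to 1.11 and 0.894 to 1.10).

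The EGFR ligands summed to 76.3 RPKM in the scrambled sample, 156 RPKM with ABL1 shRNA, 103 RPKM with ABL2 shRNA and 122 RPKM with both. EREG led in every shRNA sample, with 43.3%, 46.3%, 34.0% and 40.5% of the sum. HBEGF had 32.2%, 19.6%, 30.2% and 25.4%, and AREG had 11.7%, 19.0%, 17.9% and 17.4%. The lower share of HBEGF with ABL1 shRNA went with a higher sum and not with a lower HBEGF level.

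Side by side, AREG, EREG, HBEGF, TGFA and NRG1 were lower than in DMSO after 6 h of Ponatinib and above the scrambled level in all 3 knockdowns. The interval of EREG with ABL2 shRNA took in 1. Of all genes, 15.7% were called lower with Ponatinib, and 28.9% of 15311 were above the scrambled level in all 3 knockdowns. The share of genes with both was not computed. TGFA had a log2 difference of -1.22 with Ponatinib and of 1.34, 0.91 and 1.11 in the ABL1, ABL2 and double knockdowns, and NRG1 of -0.64 against 0.39, 0.63 and 0.53. EGFR had a log2 difference of -0.68 with Ponatinib, and of -0.58, -0.05 and -0.51 in the ABL1, ABL2 and double knockdowns. ERBB3 differed by 1.45 with Ponatinib and by -0.78, 0.07 and -0.14 in the knockdowns. The difference between the experiments was not tested, since a 6 h treatment and stable lines differ in more than the target. ABL2 mRNA was also lower with Ponatinib, at 148 and 169 CPM against 335 and 306 CPM with DMSO (log2 fold change -1.02, edgeR adjusted p = 8.56e-08). ABL1 was at 183 and 194 CPM against 166 and 163 CPM (log2 fold change 0.19, edgeR adjusted p = 0.0287). The part of ABL2 mRNA in the ligand differences was not tested.

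Of the genes outside the members, the ligand genes EGF and NRG2 were also above the scrambled level in all 3 knockdowns, where 28.9% of all genes were. EGF had 75 counts in the scrambled sample and 168, 140 and 185 counts in the knockdowns, and NRG2 had 16 counts against 47, 62 and 62. From the 3 pathway lists, ADAM19 and ADAM12 were over 2-fold higher in all 3 knockdowns. ADAM19 was at 82.0 CPM in the scrambled sample and at 176, 243 and 192 CPM with ABL1, ABL2 and both shRNAs, and ADAM12 was at 2.02 CPM and at 8.65, 9.79 and 7.66 CPM. Both metalloprotease genes were among those that fell with Ponatinib. ADAM9, of the same list, went the other way, from 407 CPM in the scrambled sample to 139, 287 and 174 CPM in the knockdowns. CBLB, which rose with Ponatinib, was at 63.1 CPM in the scrambled sample and at 27.8, 40.8 and 26.5 CPM in the knockdowns. The list for ligand release had 2, 3 and 3 of 13 genes over 2-fold higher and 1, 0 and 1 lower, the adaptor list had 1, 2 and 0 of 23 higher and none lower, and the restraint list had none of 20 higher and 1, 1 and 2 lower. Over all genes compared, 4.87%, 4.65% and 4.47% were over 2-fold higher and 4.02%, 3.06% and 3.27% lower.

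Markers of other cell types moved with the knockdowns in part. The 7 leukocyte and endothelial markers summed to 2.99 to 4.56 CPM in the DMSO and Ponatinib samples, to 22.2 CPM in the scrambled sample and to 33.5, 41.1 and 35.0 CPM with ABL1, ABL2 and both shRNAs. CD3E, which defines T cells, was at 0 counts in all 4 shRNA samples, and the sums were nearly all PECAM1, which was at 20.5 CPM in the scrambled sample. LYZ had 2 counts in the scrambled sample and 16, 9 and 17 in the knockdowns. CDH1, the gene of epithelial cadherin, had 4 counts in the scrambled sample and 23, 2 and 20 in the knockdowns. EPCAM, of the same luminal list, had 105 counts against 96, 73 and 61, GATA3 had 89 against 93, 99 and 98, and the 7 luminal markers summed to 18.8 CPM in the scrambled sample and to 18.1, 15.5 and 16.0 CPM in the knockdowns. The part of these markers in the ligand differences was not tested.

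For 3 ligands, the genes with the most similar profile were looked up over the 8 samples, each centred on the mean of its experiment on the log2(CPM + 1) scale, among 12121 genes with a mean of at least 50 counts. The closest to HBEGF were BCL2L1, an anti-apoptotic gene (Pearson r = 0.998), CDC42EP2, an effector of CDC42 (r = 0.998), and MARS2, a mitochondrial tRNA synthetase (r = 0.996). The closest to AREG were SMIM19 (r = 0.987), MGME1, a mitochondrial exonuclease (r = 0.977), and ARCN1, a coat protein gene of the Golgi (r = 0.975). The closest to EREG were SLC25A37, a mitochondrial iron carrier (r = 0.992), MFHAS1 (r = 0.991) and BRI3BP (r = 0.987). Among the members, AREG was closest to TGFA (r = 0.93) and EREG (r = 0.87), and less close to HBEGF (r = 0.59). ERBB3 ran opposite to EREG (r = -0.91) and HBEGF (r = -0.92). The 8 points share libraries, controls and the 1 Ponatinib contrast, so these values describe the order of genes in these samples and carry no p.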

How the data were processed

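RNA from LM2 cells was sequenced (Illumina HiSeq). The submitters' processing notes name FastQC, TopHat and HTSeq 0.6.0 with hg38; the deposited files hold whole read counts per gene, 1 file per sample, and strand and annotation settings are not given in the sources used here. Rows for unassigned reads (15.7% to 16.0%) are in the 4 shRNA files and were left out. The header cells of the scrambled and ABL1 shRNA files are swapped relative to their labels; groups follow the labels, and ABL1 levels go with them. Symbols were matched for 54836 of 58688 gene IDs, and lengths came from GENCODE exon unions.

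Ponatinib was compared with DMSO by the quasi-likelihood test of edgeR 4.0.16 (R 4.3.3), with TMM factors, filterByExpr and Benjamini-Hochberg adjustment over 16031 genes. The script was tested on simulated data. TMM was computed within each experiment. Knockdowns are given as ratios of CPM without a test. A count of 0 to 3, the floor, is at most 0.396 CPM, and intervals cover counting error only. Same-numbered repeats did not deviate together (r = 0.032 over 11930 genes), so no pairing was used. Repeats differed by more than counting noise (chi-square per degree of freedom 1.44 for DMSO, 3.13 for Ponatinib).

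Pathway genes were named at an adjusted p under 0.05 and a fold over 1.5 (knockdowns: over 2-fold in all 3, the same way). Also named were RHBDF1 and FRMD8 with Ponatinib, which were under 1.5-fold. ADAM9 and CBLB were named in the knockdowns although they did not pass 2-fold in all 3. EGF family genes outside the members and marker genes are given as background. Members and lists were chosen with earlier results of these data known. Alternatives were DESeq2 1.42.0, other scalings, filters, thresholds, a replicate block, all 8 samples in one fit, another gene length, and leaving out each sample.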

Additional observations from a re-analysis of the deposited data

How the results depend on the processing

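In the Ponatinib comparison, 77 of 90 alternative log2 fold changes of members kept their direction and call, and of the other 13, all of ERBB2 and BTC and all in the same direction, 12 lost the call and 1 had no adjusted p. ERBB2 was not called by the DESeq2 Wald test (log2 fold change 0.23), without a filter on low counts (0.21) or with all 8 samples in one fit (0.21), and BTC was not called without a filter (0.96), with all 8 samples (0.96) or by DESeq2, which gave it no adjusted p (0.97). Leaving out 1 sample gave 0.17 to 0.28 for ERBB2 and 0.81 to 1.13 for BTC. The count of members higher was therefore 1, in place of 3, by DESeq2, without a filter, with all 8 samples and by the study's fold rule, and 1 to 2 with 1 sample left out. The count of members lower was 6 in every setting but the study's fold rule, which gave 2, and stayed at 6 with any 1 sample left out. HBEGF ranged from -2.65 to -2.61 and AREG from -0.99 to -0.64 over the samples left out. Of the genes in the 3 pathway lists together, 13 were lower and 12 higher, against 3 and 1 by the fold rule and 7 to 17 and 7 to 18 with 1 sample left out; without DMSO replicate 2 they were 7 and 7. A replicate block changed no call of a member (6 lower, 3 higher).

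For the knockdowns, all 54 alternative ratios of members under other scalings moved by less than their counting intervals. At a 1.5-fold threshold, 1 member was lower with ABL1 shRNA and 4 were higher with ABL2 shRNA. A fit of all 8 samples assumes that each lone shRNA sample varies like the DMSO and Ponatinib pairs, so its counts are no test of the knockdowns: 4 members were past its threshold upwards and 1 lower with ABL1 shRNA, 5 higher with ABL2 shRNA, and 5 higher and 1 lower with both. Over the longest transcript, DMSO means were 46.0 RPKM for HBEGF, 54.9 for EGFR, 26.3 for EREG, 12.5 for TGFA, 12.04 for AREG, 11.3 for ERBB2, 3.06 for NRG1, 0.618 for ERBB3, 0.413 for BTC and 0.0708 for EPGN. Depth limits BTC, ERBB3 and EPGN most.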
